A study of Mus musculus with 24 samples.

Results

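The comparison described here sets dorsal horn astrocyte nuclei of mouse pups 7 days after a hindpaw incision against those of naive pups of the same age, postnatal day 10 (P10). It uses 6 of the 24 libraries of the series, the 3 naive and 3 incised P10 libraries whose title and sample sheet give the same group. Another 2 libraries of the P10 table were left out because their title and sheet give different groups. All pups carried the genotype Aldh1l1-creERT2(+/-); R26-LSL-Sun1.GFP(+/-), in which a Cre recombinase driven by the astrocyte gene Aldh1l1 switches on a green fluorescent protein of the nuclear envelope. Incised pups had a cut in a hindpaw on P3, and naive pups received isoflurane anaesthesia alone. The dorsal horn of lumbar segments L3 to L5 on the incised side was taken, GFP-positive nuclei were sorted, and nuclear RNA of each mouse gave 1 library. The label of a nucleus as an astrocyte therefore rests on the Aldh1l1 driver and the sort. Libraries are named by group and by the sex and number in their titles: naive F1, F2 and M1, and incised F2, M1 and M2. The sheet gives incised M1 as female, so sex did not enter the main model, and pups that share a number were not taken as pairs.

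Astrocytes of the dorsal horn surround the synapses through which sensory fibres from the skin reach the spinal cord, and take up the glutamate and potassium released there. In the early postnatal weeks they still mature, as do the excitatory and inhibitory neurons around them. After injury, astrocytes in many settings make more of the intermediate filament protein GFAP and secrete matrix proteins such as thrombospondins. The receptor for thrombospondins in synapse formation is the auxiliary calcium channel subunit encoded by Cacna2d1, which also binds the analgesic gabapentin. The study asked which genes differ in these nuclei after an early-life incision.

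The values were normalized expression, in which the authors scaled each library's reads by DESeq2, and they are not divided by gene length. The 6 libraries summed to between 4331475 and 5003017 in normalized units over the listed genes. Low values lay on steps, and 82.43% to 92.48% of the values under 10 lay within 0.1 of a whole multiple of the step. Taking 1 step as 1 read, a library held about 1870000 to 2670000 reads in the listed genes. Incised M2 stood apart, with Spearman correlations of 0.870 to 0.882 to the other 5 libraries, against 0.896 to 0.918 among those 5. On the leading principal component, which held 27.65% of the variance, incised M2 lay at 68.1 and naive F1 at -54.4, with the other 4 libraries between -6.97 and 5.46. All 20 astrocyte identity genes were present in every library, with summed levels of 119914 to 174089.7 in naive and 128125 to 154244 in incised libraries.

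The promoters of 4 genes that the results turn on are printed first, to show what lies directly before their RefSeq start: Kndc1, whose incision change differed between ages, Cacna2d1 and Gfap, among the leading higher and lower genes, and the neuropeptide gene Sst, a member of the gene list that stood highest. Kndc1 lies on GRCm38 at chromosome 7, 139894696 to 139941537 on the plus strand, Cacna2d1 at chromosome 5, 15934691 to 16374511 on the plus strand, Gfap at chromosome 11, 102887336 to 102900912 on the minus strand and Sst at chromosome 16, 23889573 to 23890958 on the minus strand. The 250 bases before each RefSeq start (GRCm38.p6) are given 5′ to 3′ on the gene's strand, with the letters of a searched motif in capitals. They span chr7:139894446-139894695, chr5:15934441-15934690, chr11:102897201-102897450 and chr16:23890845-23891094. The spans of the genes above are GENCODE's, whose starts are those of RefSeq for Kndc1 and Cacna2d1 but lie 3712 bases upstream for Gfap and 114 bases upstream for Sst. The Gfap window thus lies wholly inside the GENCODE span of the gene, and 114 of the 250 bases of the Sst window do.
Kndc1: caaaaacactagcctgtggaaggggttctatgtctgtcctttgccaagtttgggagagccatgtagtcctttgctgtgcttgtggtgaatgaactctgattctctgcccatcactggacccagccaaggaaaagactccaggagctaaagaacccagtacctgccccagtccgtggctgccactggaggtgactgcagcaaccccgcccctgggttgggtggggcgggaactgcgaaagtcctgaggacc
Cacna2d1: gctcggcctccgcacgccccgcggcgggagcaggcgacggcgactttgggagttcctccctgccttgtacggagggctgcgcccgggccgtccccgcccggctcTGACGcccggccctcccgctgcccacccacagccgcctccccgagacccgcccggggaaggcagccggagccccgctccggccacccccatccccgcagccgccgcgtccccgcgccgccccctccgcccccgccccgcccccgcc
Gfap: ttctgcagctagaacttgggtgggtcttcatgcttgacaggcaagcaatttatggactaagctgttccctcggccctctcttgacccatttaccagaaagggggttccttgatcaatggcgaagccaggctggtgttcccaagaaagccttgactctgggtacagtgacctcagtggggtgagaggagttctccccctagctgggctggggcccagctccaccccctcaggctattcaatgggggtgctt
Sst: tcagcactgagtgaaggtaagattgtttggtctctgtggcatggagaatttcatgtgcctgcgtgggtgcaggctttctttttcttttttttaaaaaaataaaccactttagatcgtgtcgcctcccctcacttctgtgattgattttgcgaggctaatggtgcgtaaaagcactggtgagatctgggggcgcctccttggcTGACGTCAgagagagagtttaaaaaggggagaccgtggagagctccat
Both strands were searched for the cyclic AMP response element TGACGTCA, for its core TGACG, which each full element contains, and for TATAAA. The full element was in 1.55% of 32851 such windows over all RefSeq genes, the core in 17.8% and TATAAA in 12.4%. The Sst window held the full element 48 bases before the RefSeq start, inside the GENCODE span, the Cacna2d1 window the core 146 bases before it, and the Kndc1 and Gfap windows neither of these letters nor TATAAA. The Cacna2d1 window was 82.4% G and C, against 56.4% for Kndc1, 55.6% for Gfap and 47.2% for Sst. Of the 20 dorsal horn neuron genes with an entry, 1 held the full element and 10 the core in any of their windows. Counted by gene in the same way, the shares over 27025 genes were 1.77% and 19.8%. These matches are a description of letters and were set against no measured binding.

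No gene passed the test at P10. Of 13699 genes tested with limma at a Benjamini-Hochberg adjusted p under 0.05, 0 were called (0%), and the smallest adjusted p was 0.5445. At an unadjusted p under 0.05 there were 358 genes higher in incised pups (2.61%) and 294 lower (2.15%). All 3 incised values lay above all 3 naive values for 688 genes (5.02%) and below them for 610 (4.45%). The log2 change was above 0 for 6817 genes (49.8%), with a median of -0.003. With 3 libraries a group, the median standard error of a log2 change was 0.68 for the 2948 genes with a mean level under 50, 0.47 from 50 to 200, 0.29 from 200 to 1000 and 0.21 for the 644 genes at 1000 or above. Low genes could therefore show large changes without passing. Of the alternatives tried, leaving out incised F2 gave 3 calls, Cacna2d1 with a log2 change of 3.04 (limma adjusted p = 0.0430) and the multi-copy or predicted genes Hist1h2ao and Gm14391, and leaving out naive M1 gave 1, Tmem87a (limma adjusted p = 0.00823). A block by replicate number also gave calls, as did a spread shared with the P4 and P24 libraries, both described below.

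The genes named next had groups that did not overlap and the lowest p-values, 12 in each direction with predicted and clone names left out, and none of them passed. Kndc1, which encodes a brain exchange factor for Ras proteins known from dendrite growth, was at 18.6, 19.4 and 36.4 in naive F1, F2 and M1 and at 104, 245 and 131 in incised F2, M1 and M2. Every incised library exceeded every naive library, and the log2 change was 2.61 (SE 0.54, limma adjusted p = 0.5445). Cacna2d1, the calcium channel subunit described above, was at 36.1, 29.8 and 25.2 in naive and 86.1, 208 and 310.1 in incised libraries. Its naive values were close together and its incised values spread widely, with incised M2 highest and incised F2 lowest (log2 change 2.52, SE 0.53, limma adjusted p = 0.5445).

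Among genes of membrane signalling, Kcnk2, a background potassium channel opened by stretch and lipids, was at 22.3, 59.0 and 25.5 in naive and 107, 139.7 and 157 in incised libraries (log2 change 2.00, SE 0.52). Vipr2, a receptor for vasoactive intestinal peptide, was at 5.59, 5.78 and 13.8 against 48.6, 47.1 and 54.9 (log2 change 2.55, SE 0.69). The 3 incised libraries were close to each other for Vipr2, while the naive values correspond to few reads. Akap12, a scaffold for protein kinase A, was at 54.0, 46.4 and 57.4 against 166, 222 and 141 (log2 change 1.70). Ptpn13, a tyrosine phosphatase, was at 5.58, 69.7 and 16.1 against 111, 111 and 234 (log2 change 2.85), with naive F2 well above the other naive libraries. Mmp16, a membrane-bound metalloproteinase, was at 30.03, 79.5 and 61.9 against 139, 197 and 282 (log2 change 1.88).

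The other higher genes described here included genes of neurons and of amine metabolism. Camkv, a kinase-like protein of neuronal vesicles, was at 104, 52.3 and 118 in naive and 229.6, 308 and 251 in incised libraries (log2 change 1.59). Syp, the synaptic vesicle protein synaptophysin, was at 173, 221 and 234 against 344, 492 and 480.3 (log2 change 1.06). Ddc, the decarboxylase that makes dopamine and serotonin, was at 20.6, 9.62 and 4.61 against 64.3, 59.6 and 76.8 (log2 change 2.63). Naive and incised values were apart for each, and Camkv is also a member of the neuron marker list described below. Entpd5, a nucleotidase of the endoplasmic reticulum, had a log2 change of 1.48.

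Gfap had the lowest p-value among the lower genes. It was at 26422, 26985 and 22050.2 in naive F1, F2 and M1 and at 12804, 16892 and 18527 in incised F2, M1 and M2, or 25152 ± 2701 against 16074 ± 2948 (SD, n = 3 each). Every incised library lay below every naive library (log2 change -0.66, SE 0.16, limma adjusted p = 0.759). Pfkfb4, an enzyme that sets the pace of glycolysis, was at 334, 324 and 283 against 158, 104 and 129 (log2 change -1.28, SE 0.33). A2m, a secreted protease inhibitor, was at 283, 369 and 291 against 121, 144 and 162 (log2 change -1.14, SE 0.33). For Pfkfb4 and A2m the gap between the groups was wider than the range of either group.

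Myoc, the secreted protein myocilin, was at 665, 410.4 and 504 in naive and 199, 387 and 158 in incised libraries (log2 change -1.16), where naive F2 and incised M1 nearly met. Gskip, a regulator of the kinase GSK3, was at 341, 305 and 333 against 161, 194 and 47.7 (log2 change -1.50). The DNA repair and transcription helicase gene Ercc3 was at 181, 131 and 108 against 53.7, 38.3 and 31.0 (log2 change -1.75). The other 6 lower genes had lower levels or close copies. Dap, a protein named for its part in cell death, was at 93.2, 44.5 and 91.3 against 25.9, 3.48 and 7.17 (log2 change -2.88). The log2 change was -2.64 for Tonsl, which acts in replication-coupled repair, and -2.41 for Hs3st5, a heparan sulfate sulfotransferase. It was -3.11 for Ctu1, a tRNA-modifying enzyme listed at 0 in incised M1, and -3.77 for the innate immune receptor gene Tlr6, listed at 0 in incised M1 and M2. Where a value is 0, the size of the change depends on the pseudocount of 1. For Dynlt1c, a dynein light chain with near-identical neighbouring copies, the log2 change was -1.47, and the counting of such copies makes it uncertain.

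**Figure D1:**
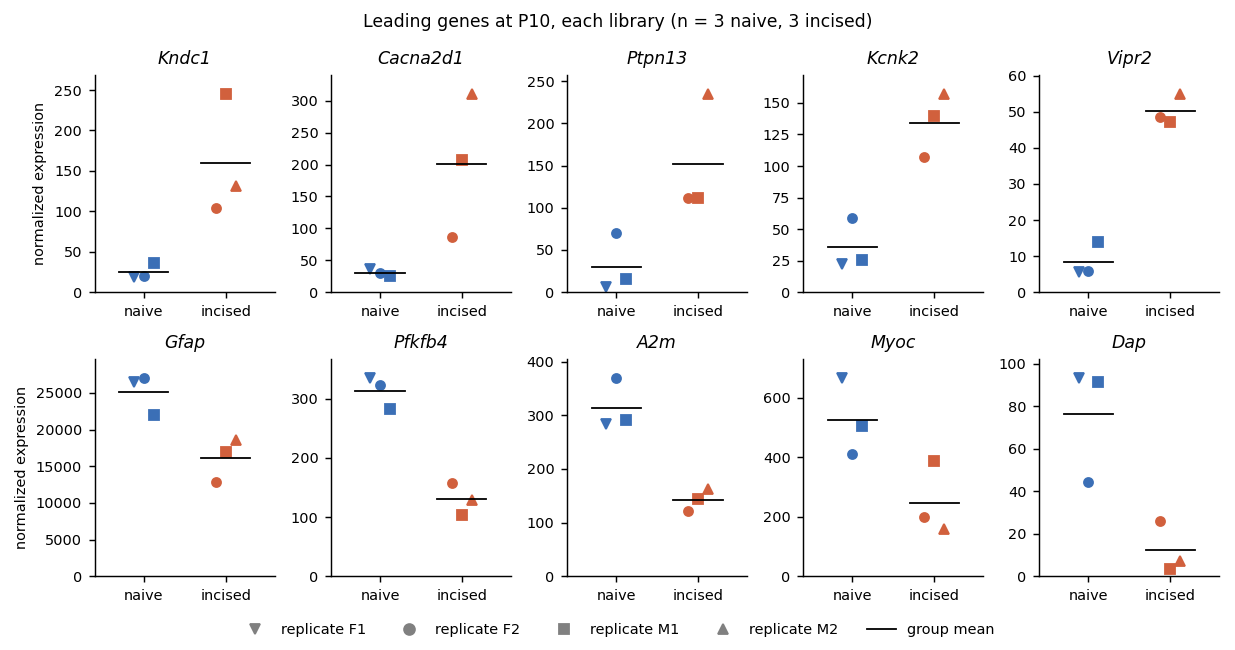
Normalized expression of 10 of the 24 leading genes (vertical axes, each from 0) in the 3 naive and 3 incised P10 libraries, with 1 symbol per library and a line at each group mean. The groups are apart in every panel; the incised values of Cacna2d1 run from 86.1 to 310.1, and every Gfap value in the incised libraries lies below the lowest naive value.

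For several of these genes the naive P10 libraries differed from naive pups of the other ages. The table of naive pups, normalized together over P4, P10 and P24, gave Cacna2d1 at 274 ± 94.8 (SD, n = 4) at P4, 34.2 ± 6.49 (n = 3) at P10 and 205 ± 70.0 (n = 4) at P24. Kndc1 was at 97.5 ± 11.8, 28.9 ± 11.5 and 595 ± 109 at these ages. Gfap went the other way, at 14472 ± 3474, 29394 ± 3293 and 17381 ± 2222. Kcnk2 was at 68.1 ± 17.7, 41.02 ± 23.2 and 66.6 ± 15.4, with overlapping ranges. All 3 naive P10 libraries lay below all 8 naive libraries of P4 and P24 for 6 of the 12 leading higher genes, namely Akap12, Cacna2d1, Camkv, Entpd5, Kndc1 and Syp, against 2.96% of 13624 genes in both tables. They lay above all 8 for 4 of the 12 leading lower genes, Ercc3, Gfap, Gskip and Pfkfb4, against 3.74% of all genes. The 3 naive P10 libraries also chose these 24 genes, so the counts are a description and no test. The table of naive pups also holds library MB12, left out here because its title calls it incised and its sheet naive. Normalized with the P10 libraries, MB12 had Kndc1 at 111 and Cacna2d1 at 190, above all 3 naive values of each. Its Gfap, at 19255, lay below the naive values, and its Kcnk2, at 22.8, within them.

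Genes of astrocyte identity other than Gfap were within the spread of the libraries. The water channel gene Aqp4, which lines the endfeet on blood vessels, was at 15248, 13558 and 13980.5 in naive and 15521, 13434 and 15474 in incised libraries (log2 change 0.05, SE 0.15). The glutamate transporter genes Slc1a2 and Slc1a3 had log2 changes of -0.03 and 0.11 (SE 0.19 and 0.18). The potassium channel gene Kcnj10 was at 0.29, the gap junction gene Gja1 at 0.03, the transcription factor gene Sox9 at -0.22, the folate enzyme gene Aldh1l1 at -0.11 and the filament gene Vim at 0.24 on the log2 scale. The groups overlapped for each of these 8 genes. For Slc1a2, Slc1a3, Aldh1l1, Kcnj10 and Gja1 the sign turned under at least 1 alternative. Over the identity list, 8 of 20 were above 0 (median -0.04, or 0.05 without naive F1). Gfap alone had groups apart, with incised lower (1 of 20, beside 4.45% of all genes). The list of astrocyte maturation genes had 7 of 18 above 0 (median -0.06, or 0.03 without naive F1). None of its members had groups apart, beside 5.02% of all genes with incised higher and 4.45% with incised lower.

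Markers of dorsal horn neurons had the highest median of the lists examined. With each library left out in turn, the median kept its sign for 19 of the 40 lists with tested genes and turned it for 21, so many list medians given below depend on single libraries. Of the 28 tested among 37 fixed, 23 had a log2 change above 0, the median was 0.62, and the groups did not overlap for 10 with incised higher and 1 with incised lower. That share, 35.7%, stands beside 5.02% of all genes, and 0 of the 28 passed. Penk, the precursor of the opioid enkephalins, was at 249, 167 and 317 in naive and 361, 753 and 472 in incised libraries (log2 change 1.09, SE 0.32, limma adjusted p = 0.912). Sst, the inhibitory peptide somatostatin whose promoter is printed above, was at 244, 209 and 296 against 352, 931 and 442 (log2 change 1.09, SE 0.32). For both peptides incised M1 was highest and incised F2 lowest of its group, and every incised library exceeded every naive one.

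Pdyn, the precursor of the dynorphins, was at 68.5, 30.6 and 9.66 in naive and 69.0, 180.0 and 125 in incised libraries (log2 change 2.03), so that naive F1 and incised F2 nearly met. Grp, gastrin-releasing peptide of itch circuits, was at 16.9, 15.3 and 0 against 24.2, 85.3 and 57.6 (log2 change 2.92), a gene listed at 0 in naive M1. The other 6 of the 10, named after their values were seen, were the inhibitory transmitter transporters Slc6a5 and Slc32a1, the transcription factors Tfap2b, Ebf1 and Ebf2, and the peptide gene Npff. The member with incised lower, named likewise, was Npy, at 96.7, 166 and 171 against 82.9, 67.8 and 84.6 (log2 change -0.84). Summed levels of the list were 2907 to 3453 in naive and 3504 to 5429 in incised libraries, and the mean log2 level of its members was 5.87 ± 0.07 against 6.60 ± 0.30 (SD, n = 3 each). In sorted bulk nuclei, fewer nuclei of a type and less RNA per nucleus cannot be told apart, and whether the neurons' share of the sort played a part in any result here was not tested. Leaving out each library in turn gave medians of 0.51 to 0.79 for this list. Without incised M2 the median was 0.59, and over members with a mean of at least 50 it was 0.37.

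Other neural cell type markers had smaller medians. The list of general neuron markers had 15 of 19 above 0 (median 0.13), with summed levels of 7681 to 10059 in naive and 8225 to 10589.8 in incised libraries, and 2 members with groups apart, Camkv and the RNA-binding protein gene Celf4 (log2 change 0.45), or 10.5% beside 5.02% of all genes. Its median was 0.02 without naive F2. Oligodendrocyte markers had 13 of 18 above 0 (median 0.35) and sums of 13103 to 21265 in naive and 14789 to 31861 in incised libraries. Opalin, a protein of myelinating cells, was at 12.9, 9.67 and 2.30 in naive and 52.1, 50.2 and 24.03 in incised libraries (log2 change 2.37). It was the only member with groups apart (5.56%, beside 5.02% of all genes), while Ugt8a, an enzyme of myelin lipids, had a log2 change of 1.0999. Oligodendrocyte precursor markers had 11 of 12 above 0 (median 0.40) and sums of 1764 to 2554 in naive and 2548 to 3388 in incised libraries. Their leading members Gpr17, a receptor of committed precursors, and the transcription factor Sox10 had log2 changes of 1.91 and 1.13 with overlapping groups, and Neu4, a sialidase named after its value was seen, was the member with groups apart (0.78). That is 8.33% of the precursor list, beside the same 5.02%. In each of these 3 lists the sums of the 2 groups overlapped. Incised M1 had the highest sum of all 3, and without it the oligodendrocyte median was 0.0044.

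The lists of the remaining cell types had fewer tested members. Microglia markers had 2 of 8 above 0 (median -0.16), and endothelial markers 2 of 6 (median -0.22), with Aplnr at -0.95 and Itm2a at -1.09. The complement gene C1qa had a log2 change of -1.41 with overlapping groups, while C1qc of the same complex, named after its values were seen, was at 9.30, 11.7 and 13.6 in naive and 25.9, 41.4 and 14.4 in incised libraries, with groups apart in the other direction (1.07). Endothelial sums were 929.8 to 1427 in naive and 481 to 973 in incised libraries. Mural cell markers had 6 of 9 above 0 (median 0.11), with Vtn, the adhesion protein vitronectin, at 1.80 on the log2 scale and groups that overlapped. The mural member with groups apart, named after its values were seen, was the muscle filament gene Des, lower in incised libraries (-0.82). That is 1 of 9, beside 4.45% of all genes. Meningeal fibroblast markers had 3 of 5 above 0 (median 0.09), ependymal markers 3 of 5 (median 0.41) and Schwann cell markers 2 of 6 (median -0.42). Each of these medians moved when single libraries were left out. The sign turned for microglia (0.22 without incised M2), meningeal fibroblasts (-0.10 without incised M1) and ependymal cells (-0.41 without naive F1). The endothelial median was -0.03 and the mural one 0.01 without naive F2, and the Schwann cell median was -0.12 without incised F2. The blood list was represented by the haemoglobin gene Hba-a1, with a log2 change of -0.42, or -0.06 without incised M2.

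**Figure D2:**
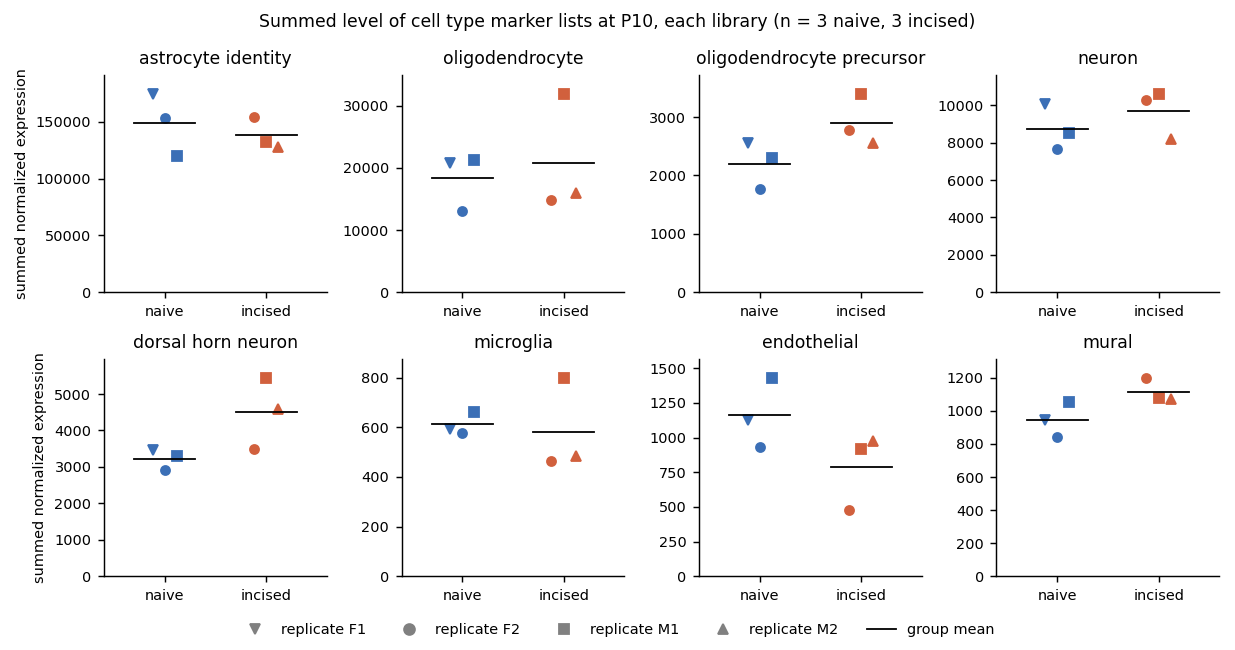
Summed normalized expression of the tested members of 8 cell type marker lists (vertical axes, each from 0) in the 3 naive and 3 incised P10 libraries, with 1 symbol per library and a line at each group mean. The dorsal horn neuron sums lie at 2907 to 3453 in naive and 3504 to 5429 in incised libraries; the astrocyte sums overlap.

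Of the 3 lists of reactive astrocyte genes, all had a median below 0 at this age, and the pan-reactive list alone kept it below 0 without any 1 library. Of the pan-reactive list 3 of 9 were above 0 (median -0.17), and Gfap alone had groups apart (1 of 9, beside 4.45% of all genes). Cp, the copper-binding ferroxidase ceruloplasmin, had a log2 change of -1.27 and Osmr, the oncostatin M receptor, of -0.81. The A1 list had 3 of 8 above 0 (median -0.13). Its member Serping1, the inhibitor of complement C1, was at 53.8, 79.3 and 36.8 in naive and 6.93, 13.9 and 21.5 in incised libraries (log2 change -1.99), with every incised value below the naive ones. No other A1 member had groups apart, so the list had 1 of 8 with incised lower, beside 4.45% of all genes. The A2 list had 3 of 8 above 0 (median -0.27), with Emp1, an epithelial membrane protein, at -1.01. The A1 median was 0.02 without naive M1, and the A2 median was 0.0037 without incised F2. Intermediate filament and lamin genes had 6 of 11 above 0 (median 0.02), among them Lmnb2, a lamin of the nuclear envelope, at 1.08. None of these members passed.

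The 9 genes of incision at P4, a list taken from results of this series 1 day after the injury, lay close to 0 at P10. Their log2 changes ran from -0.18 to 0.34 (median 0.09, or -0.16 without naive F2), against a median of 2.35 at P4 in these data, which chose them. Thbs1, thrombospondin 1, was at 439, 237 and 313 in naive and 208, 297 and 358 in incised P10 libraries, and the groups overlapped. Tpm2, a tropomyosin of actin filaments, was at 231, 124 and 195 against 212, 151 and 210.2. In naive pups normalized together over the ages, Thbs1 was at 104 ± 26.7 at P4, 381 ± 122 at P10 and 59.8 ± 25.8 at P24, so all 3 naive P10 libraries exceeded those of the other ages. The wider list of thrombospondins and synapse-regulating genes had 10 of 18 above 0 (median 0.02) and no member with groups apart, with Thbs2 at -0.57.

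Channels and signalling enzymes included several of the leading genes. Their lists were chosen with earlier results of these data known. The leading genes Cacna2d1, Kcnk2 and Kndc1 count in the shares of their lists, so these shares are a description and no test. Calcium channel subunits had 10 of 14 above 0 (median 0.24) and 3 with incised higher and groups apart (21.4%, beside 5.02% of all genes). These were Cacna2d1, Cacna1b, the N-type pore subunit of transmitter release (log2 change 1.27), and, named after its value was seen, the R-type pore subunit Cacna1e (0.21). Background and inward-rectifier potassium channels had 8 of 12 above 0 (median 0.18), and Kcnk2 and Kcnk9 (0.59) had groups apart (16.7%, beside the same 5.02%). The calcium channel median was 0.07 without incised M1, and the potassium channel median 0.02 without naive F1. The list of exchange factors for small GTPases had 13 of 18 above 0 (median 0.18) and 3 members with groups apart (16.7%, again beside 5.02%), Kndc1, Dock9 and Dock3, and its median was 0.10 without naive F1. Dock9, an activator of Cdc42, was at 51.7, 52.7 and 27.3 against 129, 187 and 111 (log2 change 1.70), and Dock3, an activator of Rac in neurons, had a log2 change of 1.07. In the glutamate and GABA handling list 5 of 14 were above 0 (median -0.08, or 0.02 without incised M2). The outlying member there was Slc38a5, an amino acid transporter at 0, 27.1 and 2.30 against 26.0, 26.1 and 55.0, with overlapping groups.

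Immediate early genes, which follow recent cell activity, had 13 of 17 above 0 (median 0.47). Arc, an activity-regulated gene of neurons, was at 3.75, 40.6 and 22.6 in naive and 44.5, 119.8 and 45.3 in incised libraries (log2 change 1.92), and Fos at 310.1, 176 and 203 against 294, 277 and 571 (log2 change 0.69), the groups of Fos overlapping. Wnt genes had 14 of 23 above 0 (median 0.31), with the ligand Wnt4 at 1.96. Notch genes had 11 of 17 above 0 (median 0.18), with the ligand-like Dll3 at 1.88, 11.8 and 11.3 against 37.8, 37.9 and 68.9 (log2 change 2.62) and the receptor Notch1 at 0.39. BMP and TGF-beta genes had 14 of 23 above 0 (median 0.07), with Bmp4 at 1.27, and FGF genes 10 of 16 (median 0.06). Glucocorticoid targets had 9 of 14 above 0 (median 0.22), with Klf9 at 0.46. Genes of gp130 and STAT3 signalling had 3 of 10 above 0 (median -0.13), cytokine and NF-kB genes 7 of 14 (median -0.08) and interferon-induced genes 7 of 16 (median -0.17). Of the last, Ifitm3, a membrane protein that blocks virus entry, was at 289, 228 and 224 against 99.9, 126 and 136 (log2 change -1.03), and Ifit2 had a log2 change of 1.81 in the other direction.

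Each of these medians moved when single libraries were left out, and those not said to turn kept their sign. Without incised M2, that of the immediate early genes was 0.19, that of the glucocorticoid targets 0.03 and that of the cytokine and NF-kB genes turned to 0.12. Without naive F1, the Notch median was 0.0013 and the interferon-induced median turned to 0.16. Without incised F2, the Wnt median was 0.01 and the FGF median turned to -0.07. The BMP and TGF-beta median turned to -0.06 without naive M1, and the gp130 and STAT3 median was -0.06 without incised M1.

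Extracellular matrix genes had 12 of 21 above 0 (median 0.09), with the basement membrane collagen Col4a2 at 1.28, and axon guidance genes 17 of 34 (median 0.01), with Slit3 at 1.32. Groups were apart with incised higher for 2 members of each list (9.52% and 5.88%, beside 5.02% of all genes). They were apart with incised lower for 1 matrix gene and 3 axon guidance genes, beside 4.45% of all genes. Cell cycle genes had 15 of 27 above 0 (median 0.13), with the mitotic activator Cdc20 at 1.86, 7.78 and 2.29 against 27.7, 27.8 and 16.7 (log2 change 2.49). Progenitor genes had 10 of 19 above 0 (median 0.00), with the RNA-binding protein Lin28b at 1.58 and the matrix protein tenascin C, Tnc, at -0.33. The cell cycle median was 0.0168 without naive F2, and the sign of the median turned for extracellular matrix (-0.06 without incised F2), axon guidance (-0.08 without naive F1) and progenitor genes (-0.06 without naive F1). Of oxidative phosphorylation genes 3 of 20 were above 0 (median -0.11), of glycolysis genes 5 of 19 (median -0.17), of ribosomal protein genes 7 of 26 (median -0.11) and of cholesterol synthesis genes 7 of 24 (median -0.11). The sign turned for cholesterol synthesis (0.08) and ribosomal protein genes (0.01) without naive F1 and for oxidative phosphorylation genes (0.05) without incised M2, without which the glycolysis median was -0.04. Naive F1 and incised M2 are the libraries that stood apart on the leading principal component. Of the 24 cholesterol synthesis genes, Mvd, Tm7sf2 and Nsdhl had groups apart with incised lower (beside 4.45% of all genes), at -0.47, -0.41 and -0.37. In that list 1 member had groups apart with incised higher (4.17%, beside 5.02% of all genes). Groups were also apart for the glucose transporter gene Slc2a1 (-0.42) and for Rpl18 (-0.48), both lower (1 of 19 and 1 of 26, beside 4.45% of all genes). No member of any of the 40 lists with tested genes passed.

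**Figure D3:**
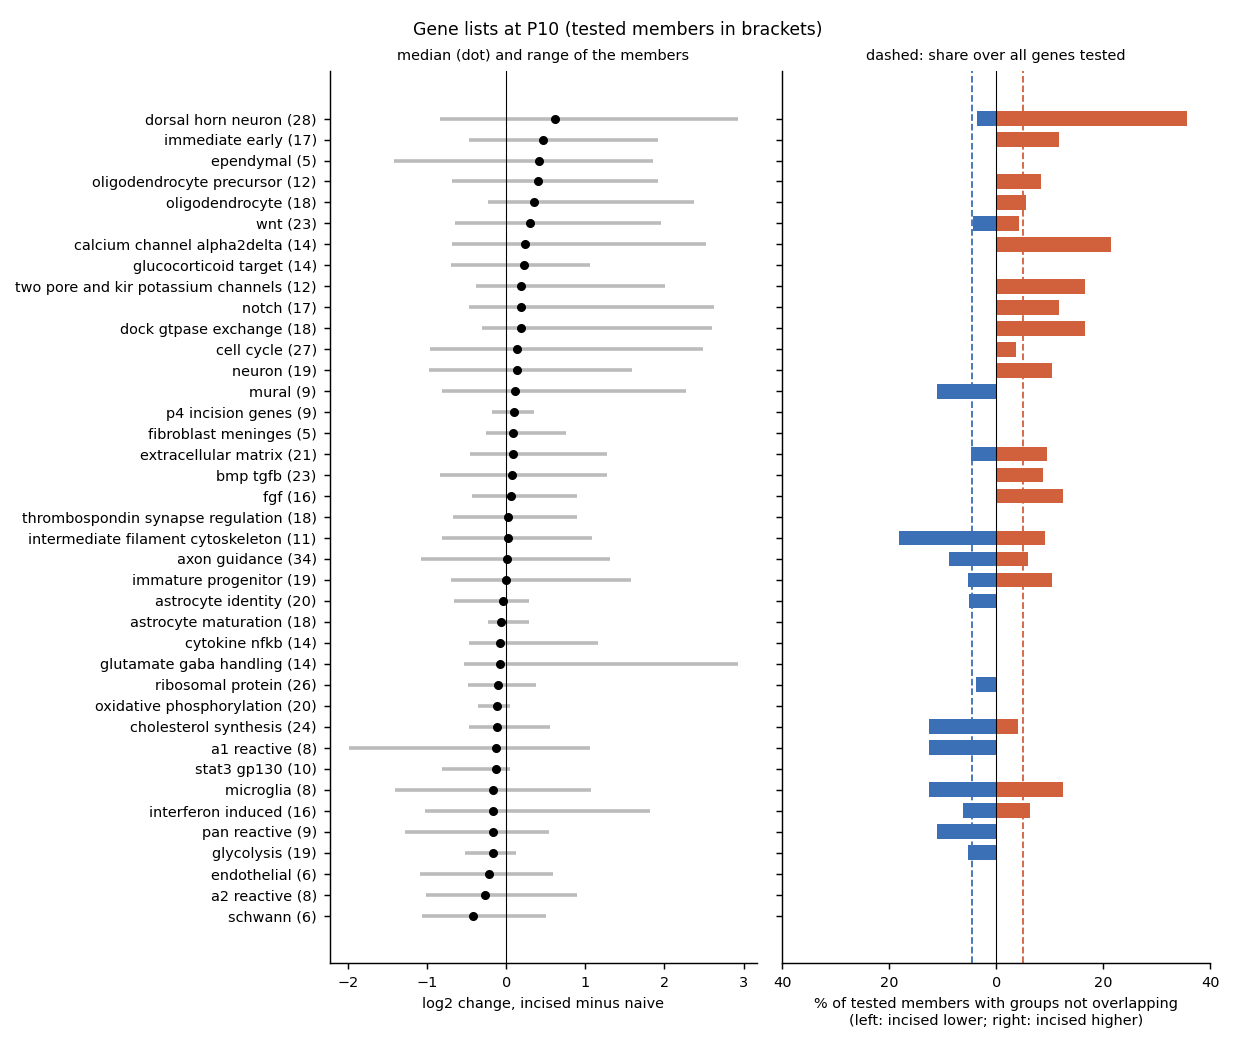
Left, the median (dot) and range (grey line) of the log2 change, incised minus naive, over the tested members of each gene list at P10; right, the share of tested members with groups that did not overlap, incised higher to the right and incised lower to the left. Dashed lines give the share over all genes tested, 5.02% and 4.45%; the dorsal horn neuron list reaches 35.7%.

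Whether the incision change at P10 differed from that at P4 or P24 was tested over 13200 genes in a model of all 22 libraries with agreed labels, each change being formed within its own table. Against P24, 1 gene was called (0.00758%), Kndc1, and 693 had an unadjusted p under 0.05. Its change was 2.61 at P10 and -0.42 at P24, a difference of 3.03 (SE 0.46, limma adjusted p = 0.00461). At P24 Kndc1 was at 549, 649, 861 and 725 in naive and 524, 511, 485 and 532 in incised libraries, where every incised value lay below the naive ones, the reverse of P10. The call held without any 1 of the 22 libraries (limma adjusted p of 0.001375 to 0.0452) and was lost with the 2 unassigned libraries placed as the sample sheet has them (limma adjusted p = 0.423). Leaving out P10 libraries gave 3 calls without naive F1, 5 without naive F2 and 3 without incised F2.

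Against P4, 9 genes were called (0.0682%), 7 with a more positive change at P10 and 2 with a less positive one, and 1566 had an unadjusted p under 0.05. For Kndc1 the difference was 2.59 (SE 0.46, adjusted p = 0.0206), from P4 means of 81.4 ± 9.87 (SD, n = 4) in naive and 88.5 ± 38.8 (n = 4) in incised pups. Vipr2, at 27.3 ± 0.957 against 17.4 ± 11.98 at P4 and 8.39 ± 4.68 against 50.2 ± 4.12 (n = 3 each) at P10, differed by 3.39 (SE 0.66, adjusted p = 0.0286). Its P10 change was 2.55 and its P4 change -0.83. Fgf14, an intracellular partner of sodium channels, went from 255 ± 38.1 to 73.5 ± 17.6 at P4 and from 119 ± 62.1 to 189.7 ± 48.1 at P10, and the changes differed by 2.60 (SE 0.45, adjusted p = 0.0206). Here most of the difference came from P4, with a change of -1.81 against 0.79 at P10.

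The same holds for Tpm2 and Thbs1, the 2 genes with a less positive change at P10. Tpm2 had a change of 2.88 at P4 and 0.09 at P10, a difference of -2.79 (SE 0.51, adjusted p = 0.0206). Thbs1 had 2.35 at P4 and -0.18 at P10, a difference of -2.54 (SE 0.49, adjusted p = 0.0284). The other 4 genes turned from a negative change at P4 to a positive one at P10. The differences were 2.39 (SE 0.45, adjusted p = 0.0284) for Ccnj, a cyclin, 1.82 (SE 0.35, adjusted p = 0.0284) for Tyw1, a tRNA-modifying enzyme, 2.71 (SE 0.53, adjusted p = 0.0284) for Wdr41, a partner of a complex at lysosomes, and 3.32 (SE 0.59, adjusted p = 0.0206) for Zfp729a. Zfp729a is a zinc finger gene with close copies, so its counts are uncertain. P10 changes of these 4 were 1.30, 0.99, 0.60 and 1.72. In naive pups normalized together, the P10 libraries lay below all those of P4 and P24 for Tyw1 (100 to 188 against 262 or more). The same was so for Zfp729a (19.3 to 38.5 against 42.8 or more). For Tpm2 they lay above (166 to 316 against 82.2 or less). For Ccnj, Fgf14, Vipr2 and Wdr41 the naive ranges at P10 and P24 overlapped. Whether the naive level at P10 had a part in these calls was not tested.

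These calls against P4 were less stable than that against P24. The number called was 0 without P4 naive F2 or P4 naive M1, 1 without P10 incised M1, 19 without P10 incised F2, 20, 23, 85 and 28 without P4 incised F1, M1, M2 and M3 in turn, and 38 without P10 naive F2. The spread between libraries of a group also differed by age, with a median standard deviation on the log2 scale of 0.45 at P4, 0.46 at P10 and 0.26 at P24. With weights per age, an alternative added after the data were seen, 0 genes were called against P4 and Kndc1 was still called against P24 (limma adjusted p = 0.0010). With the 2 unassigned libraries placed by the sample sheet, Kndc1 was no longer called against P4 either (limma adjusted p = 0.0734), and the other 8 genes were. With that spread shared over the 22 libraries, the P10 change itself was called for 14 genes without weights and for Kndc1 alone with them (limma adjusted p = 0.00263), against 0 from the 6 P10 libraries.

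**Figure D4:**
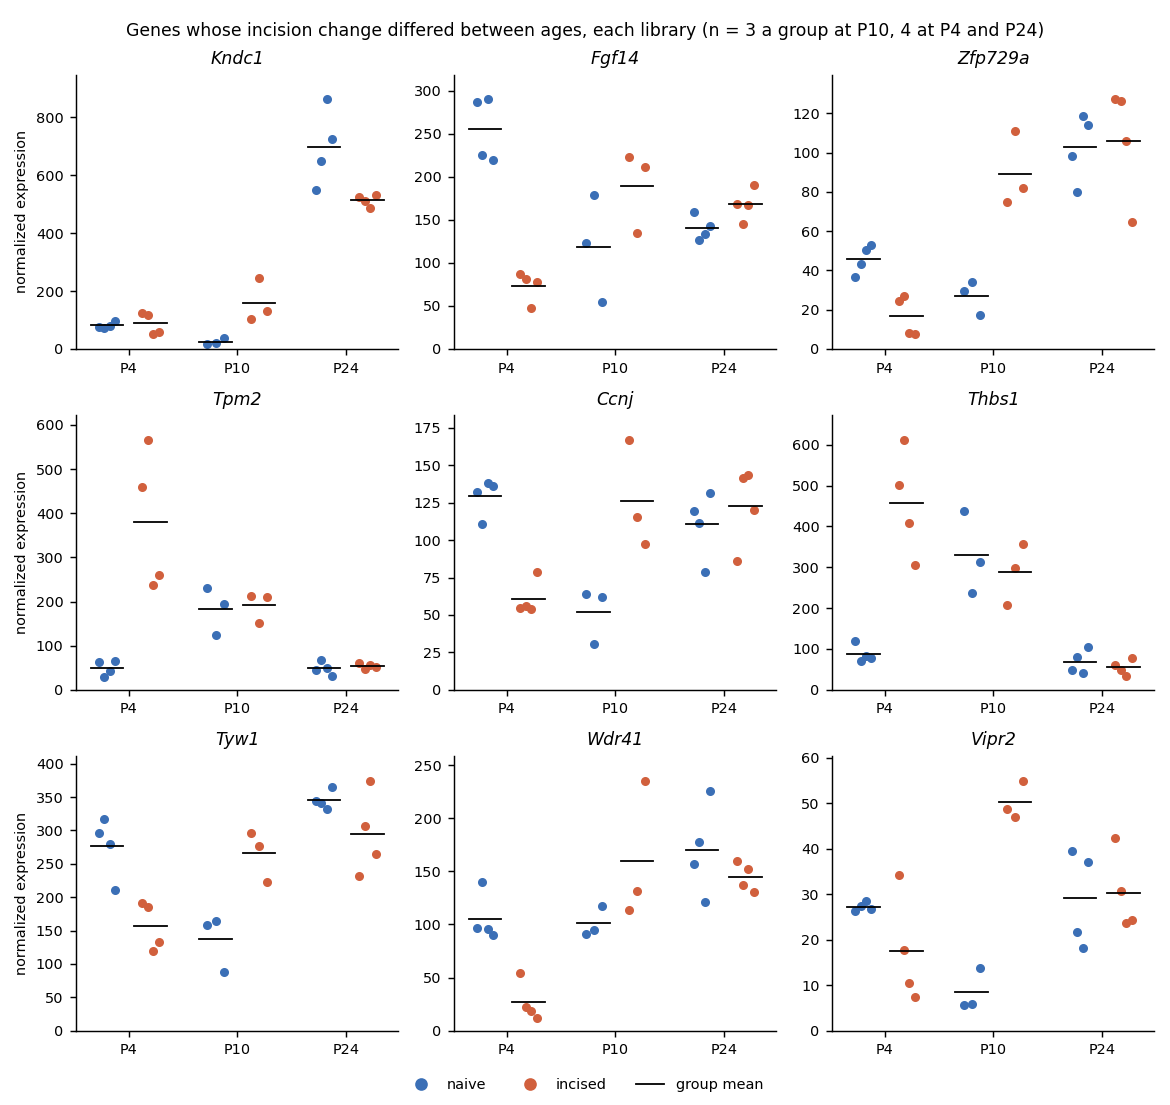
Normalized expression (vertical axes, each from 0) of the 9 genes whose incision change at P10 differed from that at P4, in naive and incised libraries of P4, P10 and P24, with 1 dot per library and a line at each group mean. Each age was normalized on its own, so levels may be compared within an age only; Kndc1 is apart at P10, while Thbs1 and Tpm2 are apart at P4.

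Genes that change as naive astrocytes mature were sorted with the P4 and P24 naive libraries alone, none of which enters the P10 comparison. Of 14964 genes tested, 2337 were higher at P24 (15.6%) and 1684 lower (11.3%). At P10, the 2189 genes higher with age that were tested there had a median incision change of -0.01, with 48.97% above 0, and groups apart in 5.80% with incised higher and 4.16% with incised lower. The 1572 genes lower with age had a median of 0.01, with 51.02% above 0 and groups apart in 5.79% and 4.26%. Both classes thus lay close to the 5.02% and 4.45% of all genes.

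Within the class higher with age, the lowest P10 p-values belonged to Kndc1, Mmp16, Ddc, Pfkfb4 and Entpd5, of which Pfkfb4 alone was lower in incised pups. Kndc1 had the log2 age difference 2.59, Ddc 2.74 and Pfkfb4 1.82, P24 minus P4. Within the class lower with age they belonged to Akap7, Lbr, Ankrd45, Ager and Grp. Akap7, an anchor for protein kinase A, was at 635, 629 and 811 in naive and 435, 381 and 374 in incised P10 libraries (log2 change -0.79). Lbr, the lamin B receptor of the inner nuclear membrane, was at 349.6, 334 and 222 against 456, 482 and 746 (log2 change 0.88). The incised values lay on 1 side of the naive ones for each, and the log2 change was 1.99 for Ankrd45 and 2.02 for Ager, a receptor of glycated proteins. None of these 10 genes passed.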

How the data were processed

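Nuclear RNA of sorted GFP-positive dorsal horn nuclei was measured by RNA-seq, 1 library per mouse. Per the submitters' processing notes, the reads were processed with STAR, Salmon and DESeq2 on mm10, without versions. The authors deposited DESeq2-normalized expression, a signal for every gene in each library, and each of the 4 tables used was normalized separately. Per the deposited description, the authors removed genes without at least 10 counts in at least 4 samples, and after testing applied limits on normalized expression (above 20) and on the coefficient of variation within a group (below 0.65). At P10 these filters used the authors' groups, with all 8 libraries of the table, so the genes here were partly chosen by their spread. Genes with a mean under 20 in 1 group may have passed the limit on level only through the other group. Among them are Vipr2, Ddc, Grp, Dll3, Opalin and Cdc20, low in naive pups, and Dap, Tonsl and Ctu1, low in incised pups. The authors' fold changes and p-values were not used.

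The changes were computed anew from log2(value + 1) of genes with a mean of at least 10. The linear model held group alone and was run with the trend and robust options of limma 3.58.1 (R 4.3.3, with statmod 1.5.0). P-values were 2-sided and adjusted by Benjamini-Hochberg over all genes tested, with a threshold of 0.05. These values are not counts, so no count model was used. Log2 changes understate the change of low genes. Group differences between ages were tested in 1 model of 22 libraries and 6 groups. The fit of the P10 groups was tested on simulated data, and the model of differences between ages was not. The smallest p of an exact permutation of 3 against 3 libraries cannot reach the threshold, and none was run.

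The comparison, the 41 gene lists and the tests were chosen with earlier results of these data known, and lists are described by counts and medians, without a test. The list of sex-linked genes had no tested member. Genes named were, by rule and without predicted or clone names, the 12 in each direction with the lowest p and groups that did not overlap, fixed astrocyte genes, examples among the 3 members of each list with the lowest p, the called or leading genes of the tests between ages, and the 5 with the lowest p in each age class. Other names are marked as chosen after their values were seen. Of the 12 leading higher genes, 1 is not reported here. Gene positions come from GENCODE M21 (GRCm38) and promoters from RefSeq (GRCm38.p6). Alternatives were another pseudocount, filter, normalization and limma setting, a sex term, the groups by title or sheet, a block by replicate number, and leaving out each library. A further 5 alternatives were added after the data were seen.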

Additional observations from a re-analysis of the deposited data

Results flagged for a closer look

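The incision change differed between ages for the genes that follow, in each case by a test of the difference itself (limma, adjusted p under 0.05), and no explanation was weighed. Against P24, the log2 difference, P10 minus P24, was 3.03 for Kndc1, an exchange factor gene. Against P4, the log2 difference, P10 minus P4, was 2.59 for Kndc1, 2.60 for Fgf14, 3.32 for Zfp729a, 2.39 for Ccnj, 1.82 for Tyw1, 2.71 for Wdr41 and 3.39 for the peptide receptor gene Vipr2. It was -2.79 for the tropomyosin gene Tpm2 and -2.54 for the thrombospondin gene Thbs1. Of 42 groups of 4 libraries checked for these genes and for Cacna2d1, Gfap and Kcnk2 in naive pups, 2 held a library far from the other 3, and chance flags about 1 in 20 such groups. These were Ccnj in P4 incised M3, at 78.4 with the others between 54.3 and 55.8, and Wdr41 in P4 naive F2, at 140.1 with the others between 90.1 and 96.3. The groups of 3 at P10 are too small for this check.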

How the results depend on the processing

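The count of genes called at P10 was 0 under each alternative except as follows. It ranged from 0 to 3 with 1 library left out, and was 14 with the spread shared with the P4 and P24 libraries and 1 with that spread and weights per age. Genes higher at an unadjusted p under 0.05 numbered 237 with a minimum mean of 50 and 663 with the shared spread, and those lower numbered 543 with the shared spread. The minimum mean of 50 leaves out 2948 of the genes tested, so the 237 are a count over fewer genes. Same-numbered libraries did not deviate together (correlations of -0.01 for F2 and 0.01 for M1). With so few shared numbers this cannot decide whether they form pairs, and they were not taken as pairs. With the replicate number as a block, 8 genes were called, Gfap and Aplnr among them (limma adjusted p of 0.000828 and 0.0166), and 596 were higher at an unadjusted p under 0.05. Naive F1 and incised M2 share no number with the other group. That fit thus takes its change from F2 and M1 alone, with little left to estimate the error, so its p-values are uncertain. The count against P4 ranged from 0 to 85 without 1 library, and was 0 with weights per age, 25 with groups by the titles and 27 with groups by the sheet, which no longer included Kndc1. Against P24 it ranged from 1 to 5 without 1 library and was 0 with groups by the sheet, and the other alternatives gave 1. Without 1 library, the median P10 change ran from -0.0456 to 0.075 for the genes higher with age and from -0.0116 to 0.0459 for those lower with age, so neither kept its sign. Of the changes near 0, the sign turned for Slc1a2 under quantile normalization (0.0171), a sex term by title (0.121) and the block (0.0762), for Aldh1l1 under that sex term (0.0583), the block (0.132) and the sheet's groups (0.0055), for Gja1 by the titles (-0.018), for Cacna1e by the sheet (-0.0176) and for Tpm2 by the titles (-0.028) and the sheet (-0.66). Without 1 library, the log2 change ran from -0.0484 to 0.480 for Kcnj10, -0.03 to 0.23 for Slc1a3, -0.312 to 0.0276 for Aldh1l1, -0.18 to 0.22 for Gja1, -0.208 to 0.0769 for Slc1a2, -0.17 to 0.28 for Tpm2 and -0.398 to 0.0451 for Thbs1. The cause of these moves was not tested. Depth limits the low genes, where 1 read is worth 1.74 to 2.39 units.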

Other observations

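The 2 P10 libraries whose title and sample sheet disagree entered no comparison, and their values are given without a group. Library MB12, a P10 incised pup by its title and a P10 naive pup by its sheet, had Kndc1 at 111 and Cacna2d1 at 190 in normalized expression. Library MB16, a P24 naive pup by its title and a P10 incised pup by its sheet, had them at 315 and 206. For Kcnk2 the values were 22.8 in MB12 and 108 in MB16, for Syp 551 and 519, and for Gfap 19255 and 29302. For the P4 incision genes Tpm2 and Thbs1 they were 135 and 206 in MB12 and 17.1 and 64.3 in MB16. Summed levels of dorsal horn neuron markers were 4733 in MB12 and 5916 in MB16, and those of oligodendrocyte markers 22335 and 30394.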
